A study of Mus musculus with 6 samples.

Results

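The genes described here encode enzymes of heme synthesis. They are the 8 rows of the gene table named Alas1, Alas2, Alad, Uros, Urod, Cpox, Ppox and Fech, out of 54532 rows in all. All 8 passed the filter on low counts and were among the 14873 genes tested. The series measured RNA from primary hepatocytes of mice on a C57BL/6 background, aged 32 to 34 weeks and fed a high-fat diet for 26 weeks. The 3 XCON libraries came from mice of genotype Xbp1FL/FL, which carry floxed alleles of Xbp1. The 3 XCKO libraries came from Xbp1ΔHep mice, with the gene deleted in hepatocytes. It encodes a regulator in the unfolded protein response, by which cells raise the folding capacity of the endoplasmic reticulum. Neither the driver of the deletion nor the exons removed are stated in the labels.

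Heme is built from glycine and succinyl-CoA in a chain of steps that starts in the mitochondrion, passes through the cytosol and ends in the mitochondrion. The first step, catalysed by 5-aminolevulinate synthase, sets the pace. It has a pair of isoenzymes: Alas1 is made in all tissues and is repressed by heme in the liver, and Alas2 is the isoenzyme of red cell precursors, where most heme goes into hemoglobin. In hepatocytes much of the heme goes into cytochrome P450 enzymes. Porphyrias are the diseases that follow when a step of the chain is impaired.

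The libraries held 23919355 to 26502456 counts in XCON and 26477489 to 27240079 in XCKO. Xbp1 itself fell from 261 ± 79.0 CPM (counts per 1e6 counts, scaled by TMM, a trimmed mean of log ratios between libraries; SD, n = 3) to 55.2 ± 14.4 CPM (SD, n = 3; log2 fold change −2.24, adjusted p = 0.0084 in edgeR's test). Mitochondrially encoded genes took 22.8% of the counts in XCON 1 and 8.99% to 13.1% in the other libraries. Red cell RNA was uneven, with summed globin counts of 483, 249 and 408 in XCON (libraries 1, 2 and 3), against 8132, 381 and 19080 in the XCKO libraries in the same order. The globin genes Hba-a1, Hba-a2, Hbb-bs and Hbb-bt gave all of these counts, and the embryonic globin genes Hba-x, Hbb-bh1 and Hbb-y had no read in any library.

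Of the 8 genes, 1 passed the test as higher in XCKO, 0 passed as lower and 7 did not pass. The test was the quasi-likelihood F test of edgeR, adjusted by Benjamini-Hochberg over all 14873 genes and read at 0.05, and all adjusted p-values below come from it unless another tool is named. Over all tested genes, 9.27% passed, 5.21% as higher and 4.05% as lower. The gene that passed was Urod (adjusted p = 0.0498). The log2 ratio is the log2 fold change of XCKO over XCON, given with its standard error (SE). Its median over the 8 genes was 0.45, against −0.05 over all tested genes. It was above 0 for 5 of the 8 (Alas1, Alas2, Alad, Urod and Cpox) and for 46.5% of all tested genes. The 3 XCON and 3 XCKO libraries did not overlap in 5 of the 8, which were Alas2, Alad, Urod and Cpox on the higher side and Ppox on the lower side. They did not overlap in 35.7% of all tested genes either. With scaling by library totals alone, the median over all genes moved from −0.05 to −0.31, the share of higher genes among those past the threshold went from 56.2% to 13.8%, and the median of the 8 genes was 0.18, so all ratios are stated relative to the TMM scale.

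**Figure D1:**
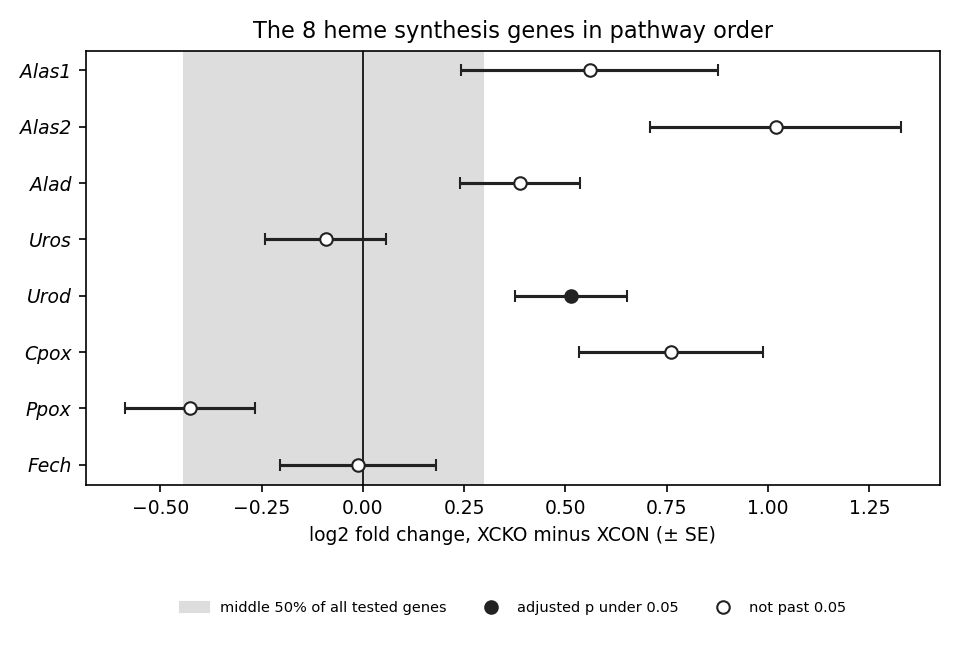
Log2 fold change (XCKO minus XCON, horizontal axis, bars ± SE) of the 8 heme synthesis genes in pathway order, with the grey band holding the middle 50% of all tested genes (−0.44 to 0.30). Urod at 0.51 is the only filled point, past an adjusted p of 0.05; Alas2 at 1.02 and Cpox at 0.76 lie farther right with wider bars, and Ppox at −0.43 is the lowest.

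Alas1, the rate-limiting enzyme gene of the liver (ENSMUSG00000032786, mm10 chromosome 9, 106233455 to 106248654, minus strand), was the most abundant of the 8 per length. Alas1 was read 5053, 9379 and 12973 times in XCON (libraries 1, 2 and 3), against 8836, 11948 and 14305 in the XCKO libraries in the same order. Scaled to the library, these were 194, 344 and 439 CPM in XCON and 358, 464 and 618 CPM in XCKO. The groups overlapped, since XCKO 1 lay below XCON 3, and XCON 1 was the lowest library. Alas1 had 326 ± 123 CPM in XCON and 480 ± 131 CPM in XCKO (SD, n = 3), with a log2 ratio of 0.56 (SE 0.32; adjusted p = 0.28). The estimate fell to 0.30 without XCON 1, and to 0.35 without XCKO 3, and reached 0.84 without XCON 3.

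**Figure D2:**
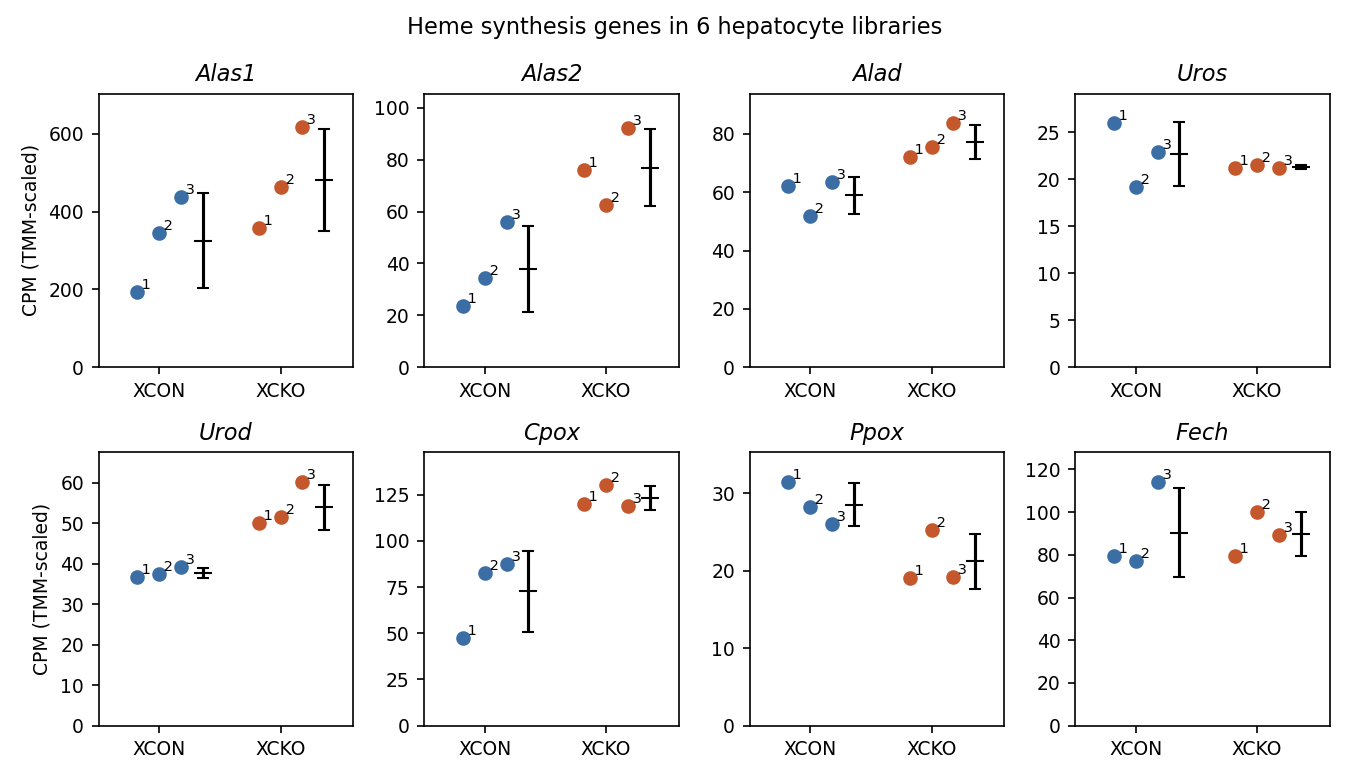
Expression (TMM-scaled CPM, vertical axes starting at 0) of the 8 genes in each library, with the library number beside each point and the mean ± SD (n = 3) in black. In Urod the 3 XCON libraries lie between 36.6 and 39.1 CPM and the 3 XCKO libraries between 49.99 and 60.3 CPM, whereas in Fech, Uros and Alas1 the groups overlap.

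Alas2, the erythroid isoenzyme gene (ENSMUSG00000025270, chromosome X, 150547375 to 150570638, plus strand), had the largest log2 ratio of the 8, although it did not pass. Alas2 was read 611, 936 and 1661 times in XCON (libraries 1, 2 and 3), against 1879, 1612 and 2138 in the XCKO libraries in the same order, or 23.5, 34.3 and 56.2 CPM against 76.1, 62.6 and 92.4 CPM. Every XCKO library lay above every XCON library, with XCKO 2 and XCON 3 closest to each other. Alas2 had 38.0 ± 16.6 CPM in XCON and 77.02 ± 15.0 CPM in XCKO (SD, n = 3). The log2 ratio was 1.02 (SE 0.31), a 2.03-fold difference (adjusted p = 0.076). Without XCON 3 it was 1.42 and passed (adjusted p = 0.042) in edgeR's test. DESeq2 called it (adjusted p = 0.0075), and so did the authors' deposited table with 0.0076. These calls rest on the same libraries as edgeR's test and are not independent of it or of each other.

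Within XCKO, Alas2 and the summed globins had the same order, lowest in XCKO 2 and highest in XCKO 3, but differed in the size of their spread. Alas2 counts exceeded the summed globin counts in 4 of the 6 libraries. There were 1.265, 3.76 and 4.07 Alas2 counts per globin count in XCON 1, 2 and 3, with exact 95% binomial intervals of 1.12 to 1.43, 3.27 to 4.34 and 3.65 to 4.55 that cover counting error only. In XCKO 1, 2 and 3 there were 0.231, 4.23 and 0.112, with intervals of 0.220 to 0.243, 3.78 to 4.74 and 0.107 to 0.117. XCKO 2 had 381 globin counts, within the 249 to 483 of XCON, and 1612 counts of Alas2, within the 611 to 1661 of XCON before scaling. Of 21 erythroid markers in the table, 3, 6 and 9 were at 0 in XCON 1, 2 and 3, 0 in XCKO 1 and 3, and 12 in XCKO 2. Among the 12 were the anion exchanger gene Slc4a1, the erythroid transcription factor gene Gata1 and Rhag, and a count of 0 allows up to 3. Other markers on the list were not low in XCKO 2. Klf1, an erythroid transcription factor gene, had 3.73 CPM there, against 0.654, 2.49 and 1.45 CPM in XCON and 2.39 and 5.27 CPM in XCKO 1 and 3. Car1, a carbonic anhydrase gene, had 1.36 CPM there, against 0.693 to 0.879 CPM in XCON and 1.21 and 3.72 CPM in XCKO 1 and 3. With XCKO 1 and 3 both removed, the log2 ratio of Alas2 was 0.74 (adjusted p = 0.46) in edgeR's test, which then rested on XCKO 2 alone and assumed that this library varies like the others. In the same fit Hbb-bs had 0.34 and Hba-a1 −0.11, against 5.09 and 4.45 with all libraries, where no globin gene passed (smallest adjusted p = 0.10 in edgeR's test, for Hbb-bs). Without XCKO 2 alone, Hbb-bs and Hba-a1 passed (adjusted p = 0.014 and 0.0036 in edgeR's test). The authors' deposited table called Hba-a1, Hba-a2, Hbb-bs and Hbb-bt with all libraries, with Hbb-bs at 5.14. Hba-a1 and Hba-a2 are near-identical copies, and Hbb-bs and Hbb-bt closely similar ones, so single globin genes are uncertain and their sum was used. The myeloid precursor gene Mpo was high in the same pair of XCKO libraries as the globins, with 124 and 165 counts in XCKO 1 and 3 and 0 in XCKO 2, and 1 to 15 in XCON. Mpo was on a list of 8 neutrophil markers, of which 6 were tested and 4 had a log2 ratio above 0. Csf3r went the other way, with 494, 551 and 355 counts in XCON and 146, 65 and 219 in XCKO 1, 2 and 3. Its log2 ratio was −1.52, and that of Retnlg was −0.63. The part of red cell or myeloid RNA in the levels of Alas2 and of the other 7 genes was not tested.

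**Figure D3:**
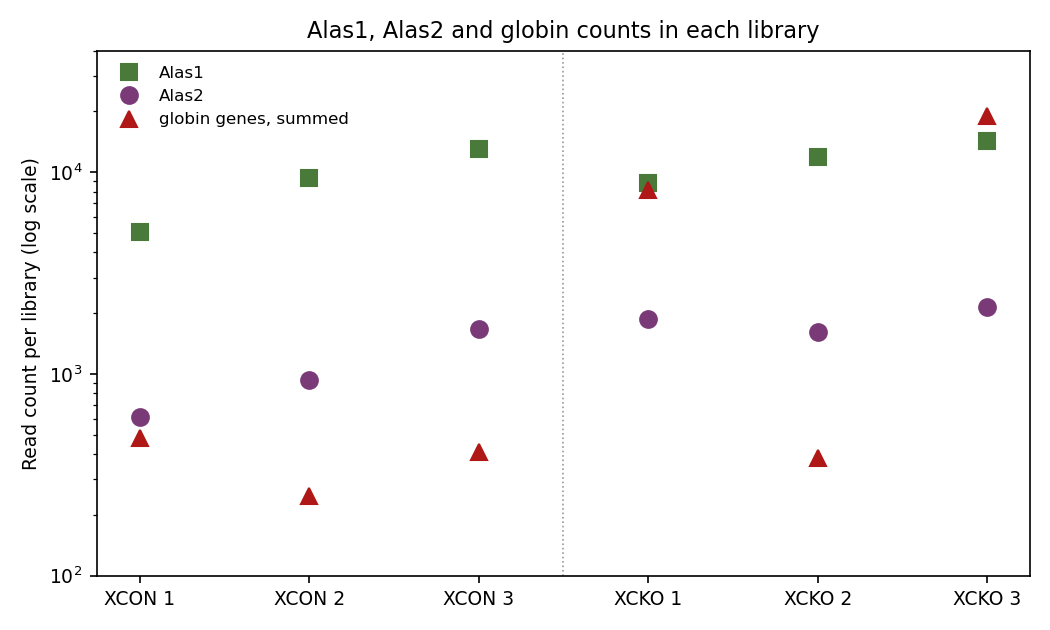
Read counts (log scale) of Alas1, Alas2 and the summed globin genes in each library. Globin counts reach 8132 and 19080 in XCKO 1 and 3 and lie between 249 and 483 in the other 4 libraries, and Alas2 lies between 1612 and 2138 in the 3 XCKO libraries, lowest in XCKO 2.

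Relative to Alas1, Alas2 made up 10.8%, 9.07% and 11.35% of the counts of both genes in the XCON libraries 1, 2 and 3, compared with 17.5%, 11.9% and 13.0% for XCKO 1, 2 and 3. The 2 groups did not overlap. The means were 10.4% ± 1.19 and 14.1% ± 2.99 (SD, n = 3), and a two-sided exact permutation test gave p = 0.1, the smallest that 3 against 3 libraries allow. Per length, in the authors' deposited FPKM (fragments per kilobase and per 1e6 reads), Alas1 exceeded Alas2 by 3.22, 3.90 and 3.04 times in XCON and by 1.83, 2.89 and 2.60 times in XCKO. Alas2 lies inside the span of Apex2, a DNA repair gene on the opposite strand, and shares 311 of its 2403 exon bases (12.9%) with it. The labels do not state if counting used strand, so reads there cannot be told apart. Apex2 had a log2 ratio of 0.03 and 193 counts per library on average.

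The cytosolic steps follow. Alad, on chromosome 4, encodes the dehydratase that joins pairs of aminolevulinate molecules into porphobilinogen. It had 62.0, 51.7 and 63.4 CPM in XCON and 72.2, 75.7 and 83.7 CPM in XCKO. The groups did not overlap, and the log2 ratio was 0.39 (SE 0.15; adjusted p = 0.12). Uros, on chromosome 7, encodes the synthase that closes the ring to uroporphyrinogen III. It had 26.0, 19.1 and 22.9 CPM in XCON, spread on both sides of the 21.1, 21.5 and 21.2 CPM of XCKO. Its log2 ratio was −0.09 (SE 0.15; adjusted p = 0.71).

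Urod, the uroporphyrinogen decarboxylase gene (ENSMUSG00000028684, chromosome 4, 116989965 to 116994413, minus strand), rose in XCKO. Urod was read 952, 1025 and 1156 times in the XCON libraries, against 1235, 1327 and 1394 times with XCKO. These were 36.6, 37.6 and 39.1 CPM in XCON and 49.99, 51.5 and 60.3 CPM in XCKO. The XCON libraries lay close together and all XCKO libraries stood above them. Urod rose from 37.8 ± 1.24 to 53.9 ± 5.55 CPM (SD, n = 3), with a log2 ratio of 0.51 (SE 0.14) and a 1.43-fold difference (adjusted p = 0.0498). The call did not hold when any 1 library was left out, with adjusted p-values of 0.071 (without XCKO 2) to 0.13 (without XCON 1) and log2 ratios of 0.45 to 0.60. The authors' deposited table gave 0.55 (adjusted p = 0.021).

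The last steps return to the mitochondrion. Cpox, the coproporphyrinogen oxidase gene (ENSMUSG00000022742, chromosome 16, 58670292 to 58717636, plus strand), was read 1237, 2261 and 2590 times in the XCON libraries, against 2970, 3363 and 2748 times with XCKO. Scaled, it had 47.6, 82.9 and 87.6 CPM in XCON and 120, 131 and 119 CPM in XCKO. The XCKO libraries lay together above XCON, and XCON 1 was the lowest by far. The log2 ratio was 0.76 (SE 0.23; adjusted p = 0.067). Without XCON 1 it was 0.54 (adjusted p = 0.11) in edgeR's test. DESeq2 called it (adjusted p = 0.012), as did the authors' deposited table with 0.012. As for Alas2, these calls rest on the same libraries and are not independent of each other.

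Ppox, on chromosome 1, encodes protoporphyrinogen oxidase and was the only one of the 8 whose libraries were all lower in XCKO. It had 31.4, 28.2 and 26.0 CPM in XCON and 19.1, 25.3 and 19.2 CPM in XCKO. XCKO 2 came close to XCON 3, and the log2 ratio was −0.43 (SE 0.16; adjusted p = 0.12). With library totals alone it was −0.68 and passed as lower (adjusted p = 0.039) in edgeR's test. Of its 4515 exon bases, 791 (17.5%) are shared with B4galt3 on the opposite strand, which had a log2 ratio of −0.22 (adjusted p = 0.48). Fech, on chromosome 18, encodes ferrochelatase, which inserts iron into the finished ring. It had 79.4, 77.2 and 114 CPM in XCON and 79.3, 100.02 and 89.5 CPM in XCKO. The XCKO libraries fell within the range of XCON, and the log2 ratio was −0.01 (SE 0.19; adjusted p = 0.98). Its sign turned in 11 of 18 alternative fits, which ranged from −0.28 to 0.20.

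Levels can be compared between genes only per length, here in the authors' deposited FPKM. In XCON, Alas1 led with 51.5 ± 20.1, ahead of Alad with 30.8 ± 3.77 and Fech with 30.4 ± 7.60 (SD, n = 3). The library ranges of Alas1 and Alad overlapped there, as did those of Alad and Fech. Alas2 (15.5 ± 7.04) and Urod (14.2 ± 0.695) came next and overlapped, followed by Cpox (10.6 ± 3.27). Uros (6.18 ± 0.971) and Ppox (6.15 ± 0.533) were the lowest and overlapped (SD, n = 3). In XCKO the order was Alas1 (77.8 ± 22.3), Alad (41.2 ± 3.73), Alas2 (32.1 ± 6.82), Fech (30.8 ± 3.25), Urod (20.8 ± 2.47), Cpox (18.5 ± 0.635), Uros (5.94 ± 0.0723) and Ppox (4.68 ± 0.696; SD, n = 3). There Alas1 stood clear of all others. Alas2, which lay below the range of Fech in XCON, overlapped it and Alad in XCKO.

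Sequence around the start was compared for the 3 genes that DESeq2 called, and for Alas1, since Alas2 is known to be driven by GATA1 in red cell precursors and Xbp1 binds elements that hold CCACG. The RefSeq promoter table (GRCm38.p6, 250 bases before to 50 after each start) matched 7 of the 8 genes with 10 windows. The stretches of Alas2, Cpox and Urod run up to the start or the annotated exon, on the strand of each gene, 5′ to 3′, and capitals mark the GATA factor elements and the CCACG element searched, on either strand.
Alas2 chrX:150547167-150547374 plus strand: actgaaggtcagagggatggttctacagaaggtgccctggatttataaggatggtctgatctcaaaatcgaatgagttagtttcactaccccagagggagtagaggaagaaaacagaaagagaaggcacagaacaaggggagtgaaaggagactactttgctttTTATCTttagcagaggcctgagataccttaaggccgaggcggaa
Cpox chr16:58669958-58670207 plus strand: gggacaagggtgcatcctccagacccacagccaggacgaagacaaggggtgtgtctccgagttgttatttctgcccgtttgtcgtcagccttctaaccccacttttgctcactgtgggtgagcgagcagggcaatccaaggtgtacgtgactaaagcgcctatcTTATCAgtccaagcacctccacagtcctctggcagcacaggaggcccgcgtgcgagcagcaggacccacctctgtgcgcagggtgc
Urod chr4:116994414-116994663 minus strand: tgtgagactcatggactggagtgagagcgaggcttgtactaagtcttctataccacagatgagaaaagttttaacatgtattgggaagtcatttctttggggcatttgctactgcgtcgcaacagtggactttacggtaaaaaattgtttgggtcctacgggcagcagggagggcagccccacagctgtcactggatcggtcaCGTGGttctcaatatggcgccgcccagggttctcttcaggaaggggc
Both strands of each window of 300 bases were searched. The counts below are of genes, and Alad, Uros and Alas1 have 2 windows each and so more room for a match. The shares are of single windows, so the counts and shares are not in like units. AGATAA was found in the windows of Alas2 and Cpox (in Cpox past the start, outside the printed stretch), 2 of the 7 genes, and in 11.2% of 32851 mouse promoter windows. TGATAA was found in Cpox and in 1 of the windows of Uros, and in 9.05% of all windows. CCACG was found in Alad, Ppox, Urod and Uros, 4 of the 7 genes, and in 32.8% of all windows. TGACGTGG and the ER stress response element, both of which overlap CCACG or its complement, were found in 0 of the 7 genes, and in 0.676% and 0.119% of all windows. Alas1 was the only one of the 7 with the element of NRF1, a factor that controls genes of mitochondrial function, found in 0.971% of all windows. The next line gives 30 bases around it, with the element in capitals; it lies inside the span of Alas1, at 30 to 39 bases past the first of its 2 listed starts and 195 to 186 bases before the other.
Alas1 chr9:106247906-106247935 minus strand: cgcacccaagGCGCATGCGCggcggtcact
These matches describe letters in the windows and not binding. The printed stretch held 45.7% G and C in Alas2, 58.8% in Cpox and 50.8% in Urod.

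By their profile over the 6 libraries, the genes most like Alas1 were Psme2b, Hao1, Mpv17l, Etnppl and Ipp. Likeness was the root mean square difference of centred log2 CPM, which was 0.14 to 0.17 for these 5 of 9479 candidates (tested genes with a mean of at least 5 CPM, without predicted genes), against a range of 1.67 for Alas1 itself. Hao1 encodes a peroxisomal oxidase of glycolate and had a log2 ratio of 0.64 (adjusted p = 0.11). For Alas2 they were Rpl17-ps10, Caln1, Gm826, Pdzk1 and 1700056E22Rik, at 0.15 to 0.17 of 14872 candidates, here all other tested genes with no such floor. Among these, 1700056E22Rik (0.41 CPM on average), Gm826 (1.27 CPM) and Caln1 (2.91 CPM) had low counts. Of these 5, Pdzk1, a scaffold gene for membrane transporters, rose by 0.99 on the log2 scale (adjusted p = 0.036). No globin was among them. The measure depends on the size of the spread, and Hbb-bs ran from 4.44 to 537 CPM, against 23.5 to 92.4 CPM for Alas2. The absence of globins therefore tells nothing about the source of Alas2 RNA, which was not tested.

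Beside the enzymes, the pathway needs proteins that carry porphyrins, heme or iron-sulfur clusters. Of 20 such genes tested, 4 rose, 0 fell and 16 did not pass, the list median was 0.47, and 19 had a log2 ratio above 0. Over all tested genes, 5.21% passed as higher and 4.05% as lower. The log2 ratio was above 0 in 46.5% of them, with a median of −0.05. Counts for this list and those below are to be read beside these shares. Tmem14c, which encodes the mitochondrial protein that brings protoporphyrinogen to the inner side for the last steps, had 73.2, 77.1 and 66.7 CPM in XCON and 153, 178 and 220 CPM in XCKO. Every XCKO library lay far above XCON, with a log2 ratio of 1.34 (SE 0.18; adjusted p = 0.0084). Glrx5, whose protein hands on iron-sulfur clusters in the mitochondrion, had 39.6, 27.6 and 37.7 CPM in XCON and 78.6, 82.4 and 107 CPM in XCKO. Its groups lay well apart, and it rose by 1.35 on the log2 scale, as for all rises given below, (SE 0.19; adjusted p = 0.010). Tspo, an outer membrane protein that binds porphyrins, rose by 0.91, and Pgrmc1, a heme-binding protein that associates with ferrochelatase, by 0.84 from 920 ± 77.4 to 1646 ± 27.8 CPM (SD, n = 3). Tmem14c and Glrx5 passed in all 18 alternative fits, Tspo in 16 and Pgrmc1 in 11. The heme exporter gene Flvcr1 (−0.36, adjusted p = 0.30) was the only one of the 20 below 0, and the mitochondrial iron importer gene Slc25a37 had 0.19 (adjusted p = 0.60), both in edgeR's test.

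**Figure D4:**
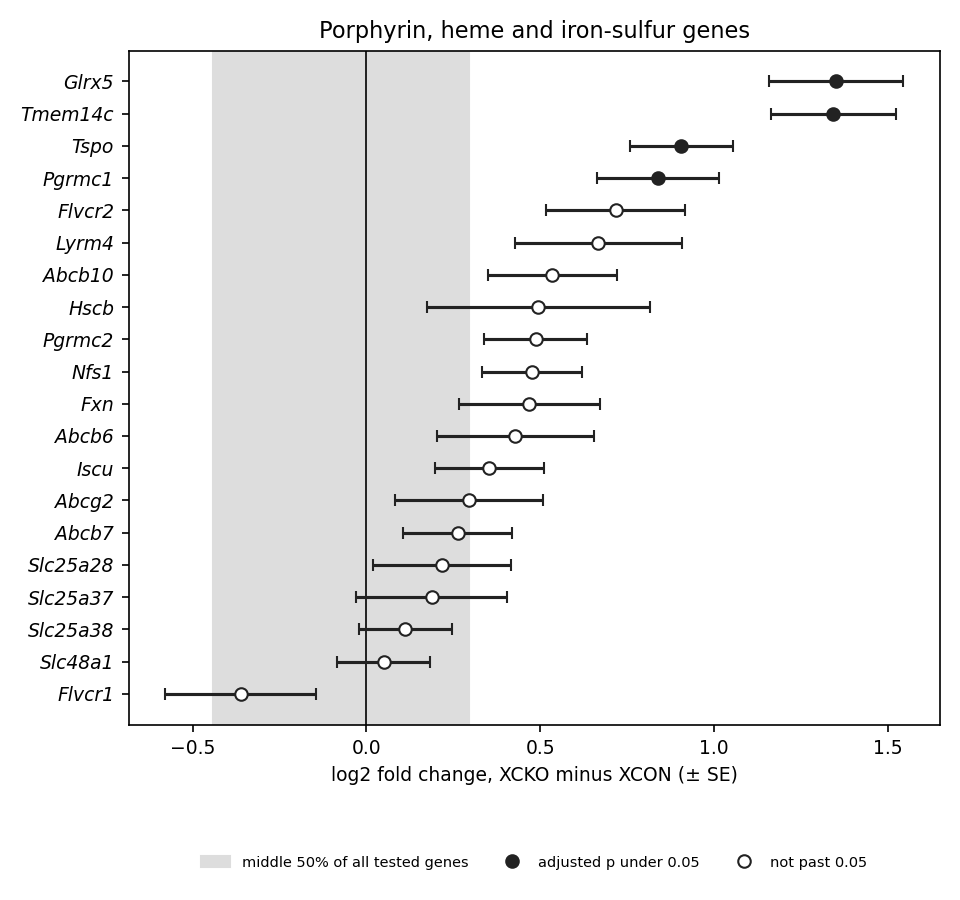
Log2 fold change (XCKO minus XCON, horizontal axis, bars ± SE) of the 20 genes for porphyrin, heme and iron-sulfur handling, ordered by value, with the middle 50% of all tested genes in grey. Glrx5 (1.35), Tmem14c (1.34), Tspo (0.91) and Pgrmc1 (0.84) are filled, past an adjusted p of 0.05, and Flvcr1 (−0.36) is the only gene below 0.

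Tfrc, the transferrin receptor gene through which cells take up iron, was on the erythroid list and is also made by hepatocytes. It had 65.5, 62.0 and 49.1 CPM in XCON and 210, 144 and 282 CPM in XCKO, with the 2 globin-rich libraries highest. It rose by 1.85 (SE 0.25; adjusted p = 0.0093) in edgeR's test and passed in all 18 alternative fits, those without XCKO 1 and 3 among them. The other 7 erythroid markers tested did not pass.

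Among 9 genes that supply succinyl-CoA and glycine, 2 rose, 0 fell and 7 did not pass, with a median of 0.58. Over all tested genes, 9.27% passed. Sucla2, a subunit gene of succinyl-CoA synthetase, rose by 0.82 from 56.8 ± 11.6 to 100.4 ± 11.3 CPM, and the serine hydroxymethyltransferase gene Shmt1 by 0.79 from 82.9 ± 6.11 to 143 ± 28.6 CPM (SD, n = 3). Of the 6 fits that left out a library, Sucla2 passed only without XCON 3 (largest adjusted p = 0.089, without XCON 1), and Shmt1 only without XCKO 1 (0.093, without XCON 1).

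Of 15 genes that control Alas1 or the turnover of its protein, 2 rose, 1 fell and 12 did not pass, with a median of −0.01. The share passing over all tested genes was 9.27%. Both genes of the list that rose encode mitochondrial proteases. Lonp1, which degrades mitochondrial ALAS1 when heme is plentiful, rose by 0.68 from 103 ± 15.0 to 165 ± 0.164 CPM, and Clpp by 0.71 from 16.3 ± 2.61 to 26.6 ± 1.77 CPM (SD, n = 3). Clpx, the partner of Clpp that also activates the synthase, had 77.2 and 76.8 CPM in XCKO 2 and 3 and 267 CPM in XCKO 1. It ranged from 66.4 to 284 CPM in XCON and did not pass. Nfe2l2, the gene of the antioxidant regulator NRF2, fell from 139 ± 22.7 to 81.0 ± 8.08 CPM (SD, n = 3), with a log2 ratio of −0.77. The coactivator gene Ppargc1a, which induces Alas1 in fasting, had 11.2 ± 5.42 and 9.42 ± 4.45 CPM (SD, n = 3), and the receptor genes Nr1i2 and Nr1i3, through which drugs induce Alas1, had log2 ratios of 0.15 and 0.93, none past the test. Lonp1 and Nfe2l2 passed without XCON 3 and in no other fit that left out 1 library, with largest adjusted p-values of 0.093 (without XCON 1) and 0.10 (without XCKO 3), and Clpp passed in none of them (0.088, without XCKO 3).

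Of 9 genes for heme breakdown and scavenging, 1 rose, 0 fell and 8 did not pass, with a median of −0.09. This is near the 9.27% that passed over all tested genes. Ugt1a1, which conjugates bilirubin, rose by 0.80 from 59.9 ± 12.3 to 104 ± 14.8 CPM (SD, n = 3), and of the 6 fits that left out a library it passed only in the one without XCON 2 (largest adjusted p = 0.098, without XCON 1). The inducible heme oxygenase gene Hmox1 had 57.6, 75.3 and 58.9 CPM in XCON and 49.1, 16.2 and 47.9 CPM in XCKO. Its groups did not overlap, and its log2 ratio of −0.76 (SE 0.39) had an adjusted p of 0.24. Hmox1 is also made by macrophages, whose 10 markers summed to 1809, 2590 and 1322 CPM in XCON and 1131, 459 and 1302 CPM in XCKO. Of these 10, Cd68 fell. Their part in the Hmox1 level was not tested. Ugt1a1 shares exons with other genes of its cluster and is uncertain. The hemopexin gene Hpx, the plasma carrier of free heme, had 8000 ± 1143 and 14282 ± 3776 CPM (SD, n = 3) and did not pass.

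Proteins that use heme, listed with their reductases, had 10 of 23 genes higher, 1 lower and 12 not passing, with a median of 0.79. Over all tested genes, 5.21% passed as higher and 4.05% as lower. The list holds the flavoproteins Por, Cyb5r3 and Sqle, which carry no heme. Cyp2c29 rose by 2.90, Cyp2b9 by 3.01, Cyp4a14 by 1.84, Cyp3a11 by 1.74 and Cyp3a25 by 1.35, and the sterol demethylase gene Cyp51 fell, with −1.03. The first 5 belong to families of similar genes that may share reads and are uncertain. Por, the electron donor of these P450 enzymes, had 202, 571 and 228 CPM in XCON and 717, 1326 and 1373 CPM in XCKO (adjusted p = 0.052). All 6 named P450 genes passed in every fit that left out 1 library. In the same libraries Alas1 did not pass, and the difference between it and the P450 genes was not tested.

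Markers of cell types moved beside these values. The 10 hepatocyte markers summed to 71869, 94655 and 83428 CPM in XCON and 112410, 99391 and 134660 CPM in XCKO, which did not overlap, and all 10 had a log2 ratio above 0 with a median of 0.40, though 1 (Apoa2) passed. The summed bile duct markers were 583, 251 and 272 CPM in XCON and 89.3, 82.5 and 162 CPM in XCKO. Most of these sums came from Spp1, with 563, 227 and 245 CPM in XCON and 76.7, 76.3 and 157 CPM in XCKO. None of the 5 bile duct markers tested passed, and 0 of them had a log2 ratio above 0 (median −1.74). Stellate markers were 287 to 591 CPM in XCON and 117 to 294 CPM in XCKO, and of 8 of them 2 fell, Lrat and Pdgfrb. Endothelial markers (522 to 541 and 394 to 830 CPM), neutrophil markers (15.1 to 36.2 and 5.47 to 88.9 CPM) and lymphocyte markers (54.7 to 114 and 16.1 to 52.0 CPM) had no gene past the test. A log2 ratio above 0 was found in 5 of 8 endothelial, 4 of 6 tested neutrophil and 0 of 7 lymphocyte markers. In these bulk samples a larger share of hepatocytes and more RNA per hepatocyte cannot be told apart. The part of either in the heme synthesis genes was not tested. No mouse is named for single libraries, and the p-values then rest only on how these libraries vary, which may be technical.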

How the data were processed

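RNA was measured in 6 libraries of primary hepatocytes, 3 per group, extracted with Trizol and prepared with a NEBNext Ultra kit, per the labels' protocols. The authors deposited raw read counts per gene, which were the unit of the tests. Bowtie 0.12.2 is named in the submitters' processing notes, as are mm8 and mm10, with no roles stated and no counting tool. Start and end of 7 of the 8 genes matched GENCODE M21 on GRCm38 (mm10), as did 98.3% of all shared identifiers, so coordinates are those of the table on mm10. The authors' deposited FPKM values served for levels per length, the group means (a signal) that they deposited were not used, and the log2 ratios with p-values that they deposited are quoted as theirs.

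Counts were filtered with filterByExpr, scaled by TMM and fitted on group alone with edgeR 4.0.16 (R 4.3.3; robust quasi-likelihood F test) over 14873 genes, with Benjamini-Hochberg adjustment and a threshold of 0.05. The SE was taken as the size of the log2 ratio over the root of F. The biological coefficient of variation was 25.8%. The fit was tested on simulated data of 14615 genes. It called 63 of 100 genes with a simulated log2 change of 1 in size and 99 of 100 with 2, with 5 false calls. Changes smaller than 1 were not simulated. Alternatives were other scalings and filters, the replicate number as a block, libraries left out, a gene length correction, removal of globin and mitochondrial genes, DESeq2 1.42.0, and limma 3.58.1 (voom, or log2 FPKM with pseudocounts of 1 and 0.1). The genes, lists and settings were chosen with earlier results of these data known. The rule for naming took all 8 genes, the globins, per list up to 6 genes past 0.05 with the smallest p, or the 1 with the smallest p, and the 5 most like Alas1 and Alas2; further genes were named after their values were seen. No sequence is printed for Fech.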

Additional observations from a re-analysis of the deposited data

How the results depend on the processing

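Past 0.05 in the main analysis were 1 higher and 0 lower of the 8 heme synthesis genes and 1378 of all genes. With library totals alone there were 0 higher, 1 lower (Ppox) and 2358 of all. Without a filter on low counts 2 were higher (Urod and Cpox) and 2160 of all genes passed, and DESeq2 called 3 (Alas2, Cpox and Urod) and 2538. The filter of 5 CPM, and limma on FPKM (log2, pseudocount 1 or 0.1), gave 0 higher each. With XCKO 1 and 3 removed 0 were higher and 679 of all passed. With 1 library left out, 0 to 1 were higher, 0 were lower, and 309 to 810 of all genes passed. Urod passed in 5 of 18 alternatives, Cpox in 3 and Alas2 in 2, and Alas1, Alad, Uros and Fech in none. With the gene length correction Cpox passed (adjusted p = 0.046 in edgeR's test) and Urod did not (0.067). The cause of these changes was not tested, beyond the fewer samples in fits that left libraries out. With the replicate number as a block, the count of heme synthesis genes past 0.05 was 0 higher and 322 of all genes passed. Deviations of same-numbered libraries from their group means correlated by 0.06, 0.08 and −0.17, and XCON 1 correlated best with XCKO 3, at 0.11. These values are all small and are tied together by centring within groups of 3. They cannot show if the numbers pair the libraries. The estimate for Fech turned positive with size factors (0.0101), no filter (0.0115), the block (0.0063), DESeq2 (0.0203), voom (0.0085), log2 FPKM (0.0409 and 0.0427) and XCKO 1 and 3 removed (0.17), and lay between −0.11 and 0.20 with 1 library left out. That for Uros lay between −0.20 and 0.0204 with 1 library left out. With XCKO 1 and 3 removed, Hba-a1 had −0.11, Hba-a2 −0.67 and the endothelial gene Clec4g −0.0429, against positive values with all libraries.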
